A study of Apis mellifera with 36 samples.

Results

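The enzymes of glycolysis and the citric acid cycle, together with those that make or use pyruvate, were followed in female and male honeybee embryos. Genes were taken from the count table when the annotated product named one of these enzymes, such as hexokinase, pyruvate kinase or malate dehydrogenase. The rule found 61 of the 12365 genes of the count table, and 6 further annotated genes with such a product were outside the table and were not analysed here. By role they fell into 15 glycolytic genes, 4 lactate dehydrogenases, 10 genes of pyruvate entry and use, 23 genes of the citric acid cycle and 9 genes whose product names match the rule although the enzymes act in other pathways. The 61 genes were read on the Amel_4.5 genome, where 7 of them lie on unplaced scaffolds and 14 have a gene on the opposite strand over an exon.

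Glycolysis converts glucose to pyruvate in the cytoplasm and yields ATP and NADH. Pyruvate then enters mitochondria, where pyruvate dehydrogenase turns it into acetyl-CoA for the citric acid cycle, whose NADH drives respiration. In insect embryos these pathways draw on carbohydrate stored in the egg.

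RNA of single embryos of Apis mellifera was sequenced from eggs laid by 2 queens. Female embryos came from worker cells and are diploid, from fertilized eggs, and male embryos came from drone cells and are haploid, from unfertilized eggs. Collection was at 24, 48 and 72 h after egg laying (AEL), with 6 females and 6 males at each time, 3 per queen, and thus 36 in all. Each embryo was sampled once, so that the times are different embryos, and neither sex carried a treatment or a transgene. The sexes of these embryos differ in ploidy and in fertilization at once. The labels' 2 batches are the 2 queens, and the effects of queen and batch cannot be told apart.

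Between 1195774 and 12808580 reads were counted per embryo, and the 72 h males stood apart with 1195774 to 2008560, against 5600680 to 7345814 in 72 h females. In 72 h males the counted reads made up 19.7 to 30.4% of the library total that the RPKM had been divided by, against 61.8 to 69.6% in 72 h females. Levels below are normalized RPKM, that is counts scaled by exon length and by the library size corrected by TMM, a factor that sets most genes of different embryos level. They are given as the lowest, the median and the highest of the 6 embryos of a group. Differences are log2 fold changes with their standard error (SE, the fold change divided by the root of F) from edgeR's quasi-likelihood test over 9575 genes, with 6 embryos in each group. A gene was called at a Benjamini-Hochberg adjusted p under 0.05 with a fold change beyond 1 on the log2 scale. Of the 61 genes 48 had enough counts for the test, and the other 13 are treated by their counts alone. Scaling by total counts or by the RPKM total moved the median log2 difference of all tested genes between females and males. It went from 0.18 (TMM) to 0.78 and 0.98 at 48 h, and from 0.41 to 1.64 and 3.00 at 72 h. All differences at 72 h are therefore relative to the TMM scale unless said otherwise. The same holds at every time for whether a gene was called or not. An 18-gene list of muscle markers, summed as CPM (counts scaled by the corrected library size only), had lowest, median and highest values of 203, 285 and 341 in 72 h females, against 66.8, 88.5 and 107 in 72 h males. Of its 8 tested genes 3 were called higher and 4 lower in 72 h females, with a median log2 difference of -0.91. A list of 41 cuticle genes summed to 283, 429.9 and 473 CPM in 48 h females, against 129, 175 and 277 CPM in 48 h males, with 7 of 15 tested genes called higher and 7 lower (median log2 difference -0.07). The part of these lists in the differences was not tested. In whole embryos fewer cells of a type and less RNA per cell cannot be told apart.

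At 24 h AEL none of the 48 tested genes was called between females and males. Across all tested genes 0.0104% were called higher and 0.0836% lower in females. An unadjusted p under 0.05 was reached by 10 of the 48, and DESeq2 also called 0. The smallest adjusted p was that of Pdk, at 0.0483 with a log2 fold change of -0.51 (SE 0.12), short of the fold required. Pdk encodes pyruvate dehydrogenase kinase, which switches pyruvate dehydrogenase off.

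At 48 h AEL 16 of the 48 genes were called higher and 10 lower in females than in males, against 33.7% and 27.6% of all tested genes. At 72 h AEL 18 were higher and 13 lower, against 38.2% and 26.8% of all genes. The total shares of the 48 therefore lay close to those of all genes. Of the 10 tested glycolytic genes 6 were called lower and 1 higher in 48 h females (median log2 difference -1.53), and 7 lower and 1 higher in 72 h females (median -1.52). These are 60% and 70% lower, and 10% higher at each time. In the citric acid cycle 8 of 20 were higher and 2 lower at 48 h (median 0.63), and 9 were higher and 2 lower at 72 h (median 0.76). The cycle's shares called higher, 40% and 45%, were near those of all genes, and 10% were lower at each time. With the RPKM total as the scale the glycolytic genes split into 2 higher and 5 lower at 48 h and into 5 higher and 2 lower at 72 h, so that the direction of the set at 72 h depends on the scale. On that scale 5 of 8 genes of pyruvate entry and use and 11 of 20 of the cycle were called higher in 48 h females. With TMM these were 2 and 8, and on both scales 1 and 2 were lower. Over all 48 genes the split with the RPKM total became 23 higher and 9 lower at 48 h and 38 higher and 5 lower at 72 h. There the median log2 difference of all tested genes was itself 0.98 at 48 h and 3.00 at 72 h. The share of all genes called on that scale was not taken, so these counts cannot be set apart from the general shift.

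**Figure D1:**
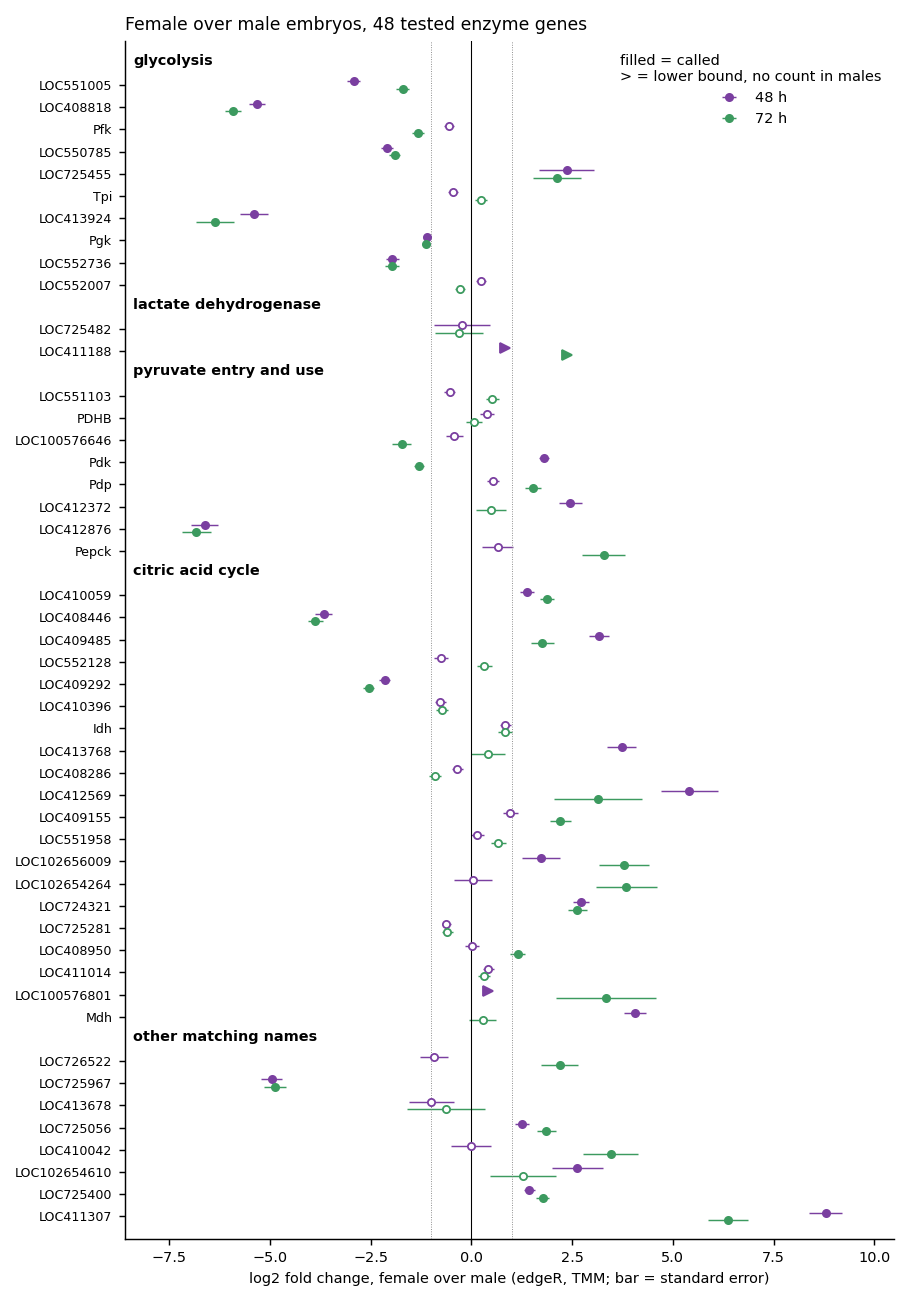
Log2 fold change of females over males on the TMM scale for each of the 48 tested genes at 48 h and 72 h AEL, grouped by role, with bars for the standard error, filled points for called genes and triangles for lower bounds where all 6 male embryos had no count. Most glycolytic genes lie left of 0 on this scale (at 72 h only 2 are called lower with the RPKM total), down to -6.36 for the glyceraldehyde-3-phosphate dehydrogenase LOC413924 at 72 h, while the largest fitted value to the right is 8.80, for LOC411307 at 48 h.

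Hexokinase, which phosphorylates glucose, is encoded by 2 of the genes. The more abundant at 24 h, LOC408818 (linkage group 4, 4264036 to 4270033), stood at 1.76, 1.86 and 2.81 normalized RPKM in 48 h females, against 52.9, 81 and 104 in 48 h males. The 72 h levels were 0.752, 1.38 and 1.58 in females, against 50.5, 75.1 and 103 in males. All female embryos lay below all males at both times. The log2 fold change was -5.32 (SE 0.19, edgeR adjusted p = 3.35e-26) at 48 h and -5.92 (SE 0.19, edgeR adjusted p = 1.91e-27) at 72 h, and it remained called, at -3.33 at 72 h, with the RPKM total. The other hexokinase, LOC551005 (linkage group 15, 442906 to 494853), stood at 1.39, 1.94 and 2.21 in 48 h females, against 12.5, 13.3 and 17.2 in 48 h males. Its log2 fold change was -2.92 (SE 0.16, edgeR adjusted p = 6.7e-20), and at 72 h it was -1.71 with TMM but 0.85 with the RPKM total. An exon of LOC408818 overlaps nompB on the same strand, whose mean level was 3.97 and 23.4 normalized RPKM in 48 h females and males, and its part in the hexokinase counts was not tested. LOC551005 overlaps LOC412453 on the opposite strand, whose mean level was 13 in 48 h females and 31.8 in 48 h males. The part of LOC412453 in the counts of LOC551005 was not tested.

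Pfk encodes 6-phosphofructokinase, the committed step of glycolysis. It was not called at 48 h, and at 72 h its log2 fold change was -1.33 with TMM but 1.28 with the RPKM total. Aldolase, which splits the hexose into triose phosphates, is encoded mainly by a pair of neighbouring genes on linkage group 1, LOC550785 (6877808 to 6897412) and LOC725455 (6898504 to 6902186). A further gene of this name, LOC724140 on an unplaced scaffold, had 3 reads in the 36 embryos. LOC550785 stood at 5.32, 6.1 and 9.27 normalized RPKM in 48 h females, against 25.5, 29.1 and 34.3 in 48 h males. LOC725455 stood at 0.705, 0.923 and 1.17 in 48 h females, against 0, 0.109 and 0.436 in 48 h males. The neighbours thus differed between the sexes in opposite directions, without overlap of the groups. The log2 fold change was -2.10 for LOC550785 (SE 0.15) and 2.37 for LOC725455 (SE 0.68, edgeR adjusted p = 0.00184). In queen 2 alone LOC725455 had an adjusted p of 0.0502. At 72 h LOC725455 stood at 2.33, 4.83 and 6.73 in females, against 0, 0.777 and 4.85 in males, and the groups overlapped. The difference for LOC550785 at 72 h was -1.90 with TMM but 0.70 with the RPKM total, while that for LOC725455 was 2.13 (adjusted p = 0.115 in queen 2 alone) and kept its sign.

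Triosephosphate isomerase, Tpi, was not called in any comparison. Tpi overlaps mRpL20 on the opposite strand, whose mean level was 87.6 normalized RPKM in 48 h females and 52.3 in 48 h males. The part of mRpL20 in the Tpi counts was not tested. LOC413924 (linkage group 10, 9221740 to 9224189) encodes a glyceraldehyde-3-phosphate dehydrogenase, the step that yields NADH. At 24 h it stood at 17.4, 23.2 and 27.6 normalized RPKM in females, against 12.5, 17.6 and 21 in males. At 48 h it stood at 0, 0.192 and 0.338 in females, against 6.11, 8.8 and 10.4 in males. At 72 h the values were 0, 0.0335 and 0.176 in females, against 2.64, 5.56 and 11.6 in males. Only 16 reads at 48 h and 7 at 72 h came from the 6 females of each time, and no female of 48 or 72 h overlapped a male of the same age. Log2 fold changes were -5.40 (SE 0.35, edgeR adjusted p = 1.2e-17) at 48 h and -6.36 (SE 0.47, edgeR adjusted p = 8.62e-16) at 72 h, and the difference remained called at -3.85 with the RPKM total. The other gene of this name in the table, LOC100577893 on an unplaced scaffold, had 2 reads in the 36 embryos.

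Phosphoglycerate kinase, Pgk, which makes ATP, stood at 72.2, 74.6 and 78.8 normalized RPKM in 48 h females, against 147, 164 and 172 in 48 h males. The groups did not overlap, but the difference of -1.10 was -0.29 and not called with the RPKM total, and that of -1.13 at 72 h turned to 0.10 with total counts and 1.42 with the RPKM total. LOC552736 (linkage group 15, 1379509 to 1381208), a phosphoglycerate mutase, had the highest level of all glycolytic genes. It stood at 110.0, 153 and 168 in 48 h females, against 533, 557 and 607 in 48 h males, a log2 fold change of -1.96 (SE 0.17). At 72 h the difference of -1.97 with TMM was 0.54 with the RPKM total. Pyruvate kinase, the last step, was almost wholly LOC552007 (linkage group 4, 9122279 to 9131026). It did not pass the threshold between the sexes, with 90.6, 120.2 and 137 in 48 h females and 74, 100.2 and 110.2 in 48 h males. The other pyruvate kinase gene, LOC413112, was too low to test, as were the genes named enolase, with 30 reads in all embryos for LOC102655754 and 1 read for LOC102656126. Whether a further enolase gene is missing from the count table was not examined, so the level of this step cannot be read here.

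**Figure D2:**
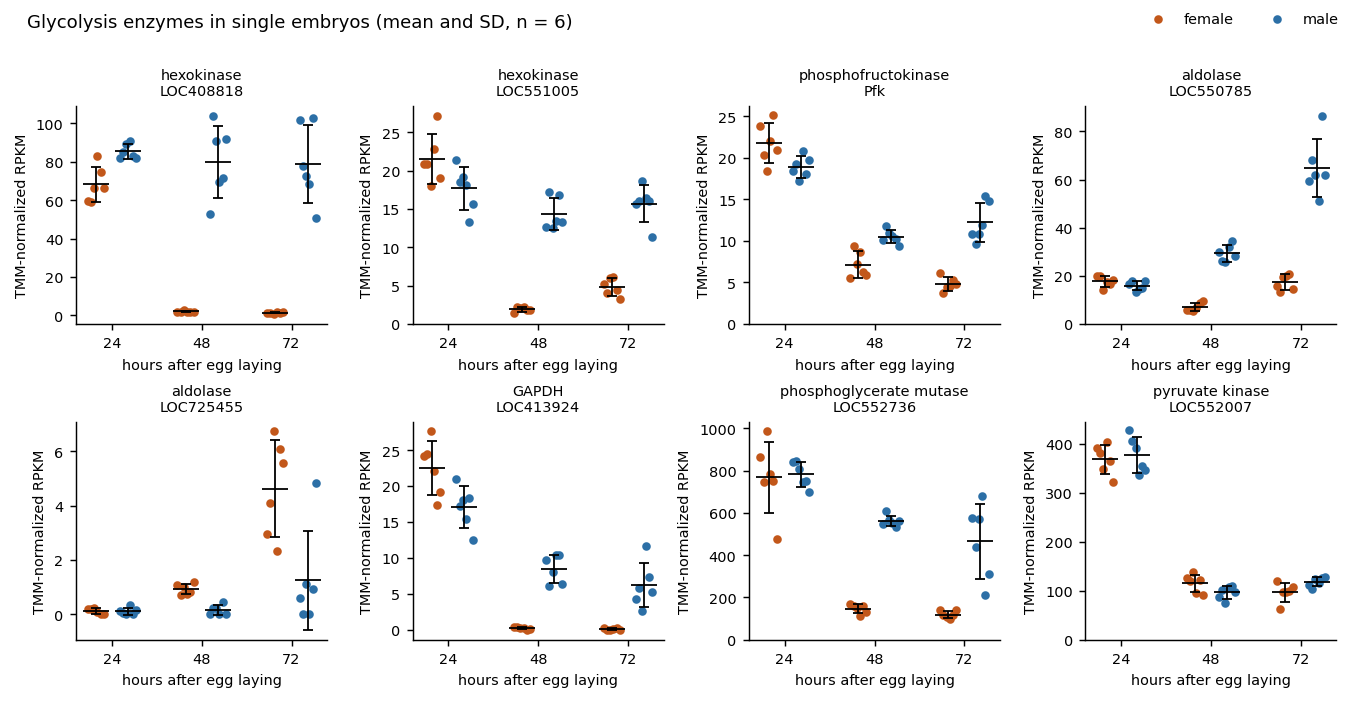
Normalized RPKM of 8 glycolytic genes in each of the 36 embryos (points) against hours AEL (24, 48, 72), with the mean and SD of the 6 embryos per group, females left of males. At 48 h the hexokinase LOC408818 reached at most 2.81 in females, against at least 52.9 in males.

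Lactate dehydrogenase reduces pyruvate to lactate and restores NAD. Its 4 genes form an array on linkage group 7 between 12851503 and 12993035. LOC411188 (12986133 to 12989320) had no read in any male embryo or in any 24 h female. It stood at 0.36, 0.846 and 1.4 normalized RPKM in 48 h females and at 5.66, 9.03 and 15.3 in 72 h females, who held 66 and 931 reads. With 3 counts per embryo as the limit that a count of 0 allows, its level in females was at least 1.78-fold that of males at 48 h and at least 5.21-fold higher at 72 h (edgeR adjusted p = 7.45e-06 and 2.03e-08). This limit is wide in 72 h males, at a mean of 3.11 CPM, against 0.321 CPM in 72 h females. The neighbour LOC725482 was not called between the sexes, and LOC411189, which overlaps its exons, and LOC411187 had too few reads to test. LOC411187 was seen at 72 h alone, with 35 reads in females and 4 in males, and averaged 0.526 ± 0.377 normalized RPKM in 72 h females and 0.523 ± 0.617 in 72 h males (SD, n = 6).

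Of the pyruvate dehydrogenase subunits, E1 alpha (LOC551103) and E1 beta (PDHB) were not called between the sexes, and the E2 gene LOC100576646 had a log2 fold change of -1.73 at 72 h with TMM but 0.86 with the RPKM total. At 48 h PDHB was 0.39 with TMM and 1.24 with the RPKM total. A kinase and a phosphatase switch the complex off and on. Pdk (linkage group 13, 1432615 to 1448741) stood at 132, 139 and 178 normalized RPKM in 48 h females, against 29.2, 45.5 and 49.4 in 48 h males. At 72 h it stood at 15.7, 17.3 and 20 in females, against 39, 43.1 and 50 in males. No embryo overlapped the other sex at either time. The log2 fold change was 1.80 (SE 0.12, edgeR adjusted p = 5.43e-17) at 48 h, and at 72 h it was -1.30 with TMM but 1.28 with the RPKM total. LOC412372 encodes the regulatory subunit of the phosphatase that switches the complex back on. Its levels were 7.71, 18.4 and 36 in 48 h females, against 1.96, 3.74 and 4.08 in 48 h males, with a log2 fold change of 2.46 (SE 0.28) and no overlap. The catalytic phosphatase, Pdp, was called with TMM only at 72 h, with 16.7, 18.4 and 21.7 in females, against 4.57, 5.92 and 10.4 in males and a log2 fold change of 1.53 (SE 0.19). At 48 h Pdp had a log2 difference of 0.54 with TMM and 1.38 with the RPKM total. It overlaps Vps4 on the opposite strand, whose mean level was 30.5 in 72 h females and 5.66 in 72 h males.

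Pyruvate carboxylase makes oxaloacetate and so refills the cycle. Its gene LOC412876 (linkage group 13, 9852769 to 9882441) stood at 0.151, 0.266 and 0.481 normalized RPKM in 48 h females, against 7.53, 33.2 and 49.2 in 48 h males. At 72 h it stood at 0.1, 0.158 and 0.207 in females, against 12.6, 15.9 and 28.6 in males. These were the lowest differences of all 48 genes, with log2 fold changes of -6.62 (SE 0.34, edgeR adjusted p = 5.42e-21) at 48 h and -6.83 (SE 0.36, edgeR adjusted p = 1.15e-20) at 72 h and groups far apart. The value at 72 h remained called at -4.29 with the RPKM total. Pepck, phosphoenolpyruvate carboxykinase of gluconeogenesis, stood at 0.779, 3.98 and 7.76 in 72 h females, against 0, 0.344 and 0.966 in 72 h males, a log2 fold change of 3.28 (SE 0.54) with overlap of the groups.

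In the citric acid cycle the first steps differed between the sexes in opposite directions. The citrate synthase LOC410059, which joins acetyl-CoA to oxaloacetate, stood at 120.4, 173 and 218 normalized RPKM in 48 h females, against 52.6, 62.5 and 86.4 in 48 h males. Its log2 fold change was 1.38 (SE 0.17) at 48 h and 1.87 (SE 0.17) at 72 h, with no overlap at either time. The aconitase LOC408446 (linkage group 14, 4181016 to 4188584), which isomerizes citrate, stood at 2.49, 3.71 and 5.48 in 48 h females, against 18.3, 50.8 and 66.3 in 48 h males. By 72 h they were 7.65, 8.23 and 14.2 in females, against 104, 145 and 181 in males. The log2 fold change was -3.67 (SE 0.20) at 48 h and -3.87 (SE 0.19) at 72 h, and -1.28 at 72 h with the RPKM total, still called. LOC409485, named cytoplasmic aconitase, went the opposite way. Its levels were 19.7, 30.3 and 76.4 in 48 h females, against 2.61, 4.19 and 6.64 in 48 h males, with log2 fold changes of 3.17 (SE 0.25) at 48 h and 1.76 (SE 0.29) at 72 h and no overlap at either time. In mammals the cytoplasmic protein also binds iron-responsive elements. It overlaps LOC726631 on the opposite strand, which averaged 29.4 in 48 h females and 5.45 in 48 h males.

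The NAD-dependent isocitrate dehydrogenase has subunits alpha, beta and gamma. Alpha, LOC409292, stood at 14.6, 19.8 and 24.6 normalized RPKM in 48 h females, against 58.7, 78.3 and 132 in 48 h males, a log2 fold change of -2.15 (SE 0.14) with no overlap. At 72 h the difference was -2.55 with TMM and 0.05 with the RPKM total. Beta (LOC552128) and gamma (LOC410396) were not called, with -0.75 and -0.77 at 48 h. As a share of the 3 subunits in the same embryo, which no scaling changes, alpha made up 9.37 ± 1.51% in 48 h females and 21.2 ± 1.95% in 48 h males, and 13.9 ± 1.66% in 72 h females and 38.7 ± 4% in 72 h males (SD, n = 6). The shares of females and males did not overlap at either time. The isocitrate dehydrogenase Idh was not called in any comparison with TMM. At 48 h its log2 difference was 0.84 with TMM and 1.64 with the RPKM total. All females lay above all males in Idh at 48 h and at 72 h on the TMM scale.

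2-oxoglutarate dehydrogenase, the next step, was mostly LOC408286, which was not called in any comparison. The less abundant LOC413768 stood at 2.5, 3.01 and 3.59 normalized RPKM in 48 h females, against 0, 0.203 and 0.418 in 48 h males, a log2 fold change of 3.73 (SE 0.36, edgeR adjusted p = 1.81e-12). At 72 h it stood at 0.651, 0.867 and 1.13 in females and 0, 0.714 and 1.59 in males, and it was not called. An exon of LOC413768 overlaps LOC102655723 on the same strand, whose part in these counts was not tested. LOC412569, a homolog of DHKTD1, whose product acts on 2-oxoadipate in mammals, had 194 reads in the 48 h females and 2 in the 48 h males. The ratio of normalized counts was 51.5 (95% exact interval 14.1 to 428, counting error only, edgeR adjusted p = 4.09e-09). At 72 h the reads were 91 in females and 1 in males, and the adjusted p of 0.00822 was not reached in either queen alone (0.0817 and 0.067). LOC412569 overlaps Sirt2 on the opposite strand, which averaged 38.2 in 48 h females and 13.5 in 48 h males. The E2 subunit LOC409155 was called with TMM at 72 h alone, with 9.05, 10.5 and 16 in females, against 1.46, 1.88 and 4.75 in males and a log2 fold change of 2.21 (SE 0.26). At 48 h its log2 difference was 0.97 with TMM and 1.79 with the RPKM total.

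Succinyl-CoA ligase makes a nucleoside triphosphate from succinyl-CoA. Its ADP-forming beta subunit, LOC551958, was not called in any comparison. The GDP-forming beta subunit is annotated as neighbours on linkage group 4, LOC102656009 (11164173 to 11165442) and LOC102654264 (11174355 to 11175566), whose gene IDs are not in the later assembly Amel_HAv3.1, so that whether they are separate genes is uncertain. At 72 h they had 375 and 282 reads in females, against 3 and 2 in males. The ratios of normalized counts were 13.4 (95% exact interval 4.56 to 65.5) for LOC102656009 and 15.2 (4.16 to 126) for LOC102654264, with edgeR adjusted p of 7.1e-07 and 1.9e-05. Both were detected in all 72 h females at 5.81 normalized RPKM or more, and the highest 72 h male had 2.45.

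Fumarase, LOC724321, converts fumarate to malate. It stood at 25.2, 29.9 and 35.5 normalized RPKM in 48 h females, against 2.39, 4.56 and 7.54 in 48 h males. The values at 72 h were 24.5, 31.9 and 37.5 in females, against 3.66, 4.42 and 7.15 in males. No female overlapped a male at these times, and the log2 fold change was 2.72 (SE 0.20) at 48 h and 2.63 (SE 0.24) at 72 h. LOC724321 overlaps LOC552556 on the same strand, which averaged 3.6 in 48 h females and 0.464 in 48 h males.

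Malate dehydrogenase closes the cycle in mitochondria and exchanges malate and oxaloacetate in the cytoplasm. LOC408950, the most abundant at 24 h, is named mitochondrial. Its levels were 61.9, 93.2 and 118 normalized RPKM in 72 h females, against 22.1, 37.4 and 71.9 in 72 h males, a log2 fold change of 1.15 (SE 0.19) with overlap of the groups. At 48 h the difference was 0.01. The main cytoplasmic gene, LOC411014, was not called in any comparison. Mdh (linkage group 15, 8812299 to 8824330), whose product name gives no compartment, stood at 47.3, 60.9 and 66.3 in 48 h females, against 0.922, 2.98 and 8.04 in 48 h males. Its log2 fold change of 4.06 (SE 0.27, edgeR adjusted p = 4.7e-17) at 48 h was 0.28 and not called at 72 h, with 2.76, 4.69 and 5.3 in females and 1.86, 3.45 and 4.98 in males. A second cytoplasmic gene, LOC100576801, had no read at 24 h or in 48 h males, 50 reads in 48 h females, and 100 in 72 h females against 1 in 72 h males. At 48 h its female level was at least 1.32-fold higher, and the ratio of normalized counts at 72 h was 10.8 (95% exact interval 1.89 to 429, adjusted p = 0.0152 over both queens and 0.219 in queen 1 alone). LOC100576801 overlaps LOC551137 on the opposite strand, which averaged 0.697 normalized RPKM in 48 h females and 0.0626 in 48 h males. At 72 h LOC551137 averaged 0.7 in females and 0.058 in males, and its part in these counts was not tested.

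**Figure D3:**
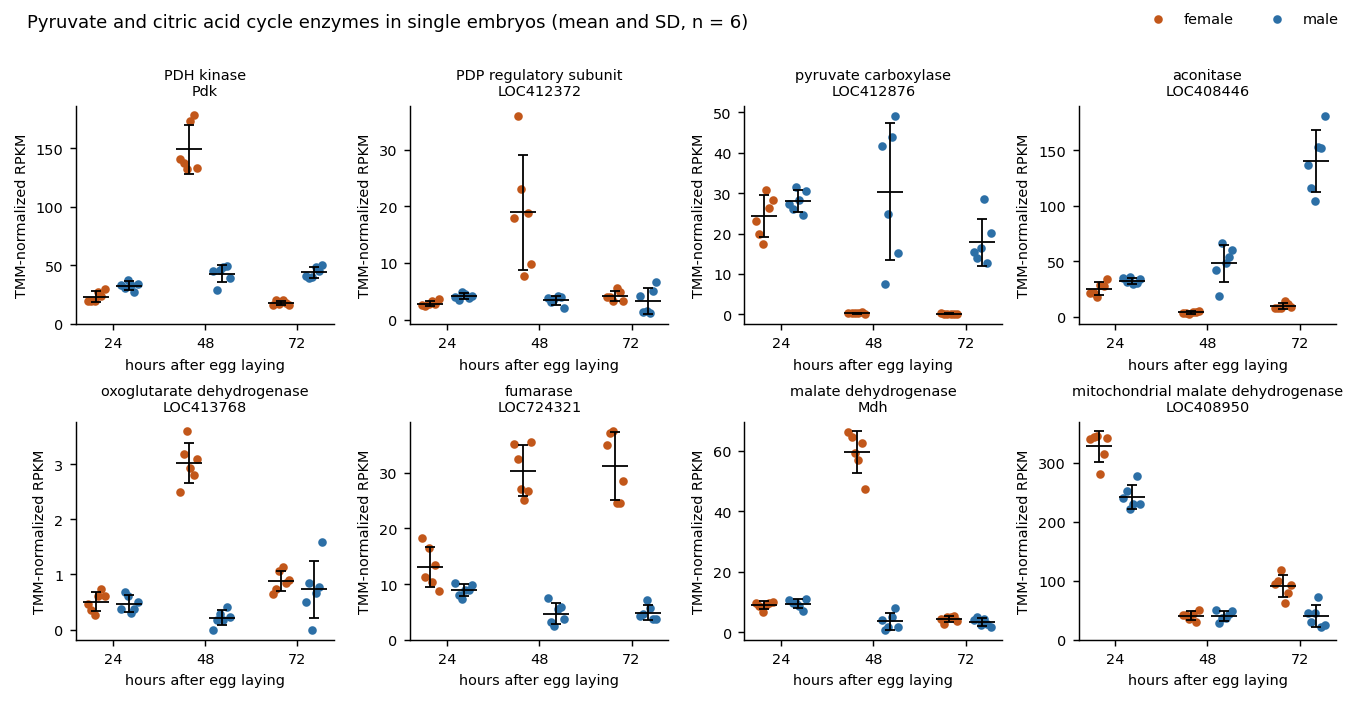
Normalized RPKM of 8 genes of pyruvate use and the citric acid cycle in each of the 36 embryos (points), with mean and SD per group of 6, females left of males at 24, 48 and 72 h AEL. Pdk and Mdh peak in 48 h females, at 132 to 178 and 47.3 to 66.3, while pyruvate carboxylase LOC412876 is at most 0.481 in 48 h females.

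The other matching names belong to different pathways. LOC411307 (linkage group 9, 10699049 to 10701242), named after the mitochondrial enolase superfamily, is an enolase-fold protein and not the glycolytic enolase. It stood at 45, 52.3 and 84.1 normalized RPKM in 48 h females, against 0, 0 and 0.465 in 48 h males. At 72 h it stood at 23.6, 35.6 and 38.4 in females, against 0, 0.29 and 1.05 in males. The log2 fold change was 8.80 (SE 0.41, edgeR adjusted p = 5.02e-22) at 48 h and 6.37 (SE 0.49, edgeR adjusted p = 2.76e-15) at 72 h. The males held 5 and 4 reads at these times. All 5 reads at 48 h lay in 1 male embryo, so the fitted 8.80 is no exact fold. Against the 5 males at 0, with 3 counts per embryo as the limit, the 48 h females were at least 111-fold higher. The opposite-strand neighbour LOC552803 averaged 7.71 in 48 h females and 10 in 48 h males. LOC725967 (linkage group 8, 2814201 to 2817780) encodes 3-phosphoglycerate dehydrogenase, which diverts a glycolytic intermediate to serine. It stood at 1.15, 1.75 and 2.6 in 48 h females, against 41.6, 51.1 and 81.7 in 48 h males, a log2 fold change of -4.96 (SE 0.25), and -4.87 (SE 0.27) at 72 h. The log2 fold change at 72 h remained called at -2.34 with the RPKM total. An opposite-strand gene over its exons, LOC552279, averaged 0.699 in 48 h females and 16 in 48 h males. The 4-hydroxyphenylpyruvate dioxygenase LOC725400, of tyrosine breakdown, and the hydroxypyruvate reductase LOC725056 were higher in females at both times, with log2 fold changes of 1.44 and 1.26 at 48 h and 1.77 and 1.86 at 72 h. The ketohexokinase LOC726522 and the second hydroxypyruvate reductase LOC410042 were higher in females at 72 h alone, by 2.19 and 3.46 on the log2 scale. LOC725400 overlaps the far more abundant LOC409406 on the opposite strand. LOC409406 averaged 898 normalized RPKM in 48 h females and 348 in 48 h males, and 612 and 284 at 72 h. LOC725056 likewise overlaps trsn, at 24.2 in 48 h females and 52.8 in 48 h males. LOC410042 overlaps LOC725855, at 17.3 in 72 h females and 4.56 in 72 h males. The part of these neighbours in the counts was not tested.

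Between 24 and 48 h AEL more of these genes were called in females than in males, as was so for all tested genes. Of the 48 genes 27.1% were called higher and 39.6% lower in females, and 0% and 22.9% in males. In females 13 of the 48 were higher and 19 lower at 48 h than at 24 h, against 32.4% and 26.5% of all tested genes. In males 0 were higher and 11 lower, against 10.9% and 10.4% of all genes, with 27 of the 48 at an unadjusted p under 0.05 and 0 higher and 9 lower by DESeq2. In glycolysis 8 of 10 genes fell and 1 rose in females (median log2 change -1.65), while 2 fell in males (median -0.37). With the RPKM total 9 of the 10 were called lower in females and 7 in males. On that scale the median log2 change of all tested genes was -0.01 in females and -0.80 in males. Whether a change differed between the sexes was tested by an interaction term. It was called for 13 genes with a higher change in females and 12 with a lower one, against 29.3% and 26.5% of all genes, and 6 of the 10 glycolytic genes were among the 12.

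The genes that fell in females at 48 h included LOC413924 at -6.81 (SE 0.33), LOC412876 at -6.30 (SE 0.33), LOC725967 at -6.08 (SE 0.26) and LOC408818 at -5.08 (SE 0.19) on the log2 scale. The phosphoglycerate mutase LOC552736 fell by 2.40, at 110.0, 153 and 168 normalized RPKM at 48 h, against 476, 768 and 988 at 24 h. Those that rose in females included LOC411307 at 9.18 (SE 0.37), Mdh at 2.74 (SE 0.24) and Pdk at 2.69 (SE 0.13). LOC412569, with 194 reads in 48 h females against 1 in 24 h females, had a ratio of normalized counts of 275 (95% exact interval 48.8 to 10932). The interaction term was -6.39 (SE 0.41) for LOC412876, -5.80 (SE 0.41) for LOC413924, 4.16 (SE 0.36) for Mdh and 8.26 (SE 1.50) for LOC411307, which had 5 reads in 48 h males.

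Some genes fell in both sexes. The mitochondrial malate dehydrogenase LOC408950 stood at 29.9, 42.1 and 51 normalized RPKM in 48 h females, against 281, 342 and 345 in 24 h females, and at 28.1, 39.9 and 50 in 48 h males, against 221, 236 and 278 in 24 h males. Its log2 change was -3.01 (SE 0.18) in females and -2.58 (SE 0.18) in males, without overlap of the times in either sex. Pyruvate kinase LOC552007 fell by 1.69 in females and 1.96 in males, and PDHB by 1.24 and 1.49. In males the lowest changes with the same direction in each queen were those of LOC408950, of the hydroxypyruvate isomerase LOC102654610 at -2.50 (SE 0.64), which had 7 reads in 48 h males against 99 in 24 h males, and of LOC102656009 at -2.42 (SE 0.44).

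From 48 to 72 h the females had 13 genes higher and 7 lower, against 20.7% and 14% of all genes, and the males 5 higher and 4 lower, against 16.7% and 11.6%. In females the lactate dehydrogenase LOC411188 rose by 3.45 on the log2 scale (SE 0.34, edgeR adjusted p = 1.52e-08), LOC410042 by 2.42 (SE 0.39) and the aldolase LOC725455 by 2.30 (SE 0.42). Mdh fell by 3.78 (SE 0.26), Pdk by 3.07 (SE 0.13) and LOC412372 by 2.16 (SE 0.26), each of which had risen from 24 to 48 h. In males none of the 5 higher genes was called with the RPKM total. LOC550785 was 1.14 with TMM but -0.29 with that scale, LOC408446 was 1.55 against 0.16, and LOC413768 was 1.55 against 0.12. LOC725455, at 2.54 (adjusted p = 0.0203), was 1.51 (adjusted p = 0.253) without male 72 h replicate 24, which had the highest level, and LOC725482 was 2.31 against 0.86 with the RPKM total. Of the 4 lower genes, Pdp at -1.55 (SE 0.19) and LOC409155 at -1.24 (SE 0.28) remained called under every scaling run, and LOC725967 and LOC725056 did not.

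For the step from 48 to 72 h the interaction term was called higher for 9 genes and lower for 6, against 23.3% and 20.5% of all genes. With the RPKM total it was called for 34 and 3, where its median over all tested genes was 1.82, against 0.06 with TMM. For single genes the term is given with TMM. It was -3.78 (SE 0.44) for Mdh, -3.32 (SE 0.62) for LOC413768 and -3.10 (SE 0.17) for Pdk. The highest were 3.81 (SE 0.97) for LOC102654264, which had 2 reads in 72 h males, 3.46 (SE 0.89) for LOC410042 and 3.12 (SE 0.57) for the ketohexokinase LOC726522. In queen 2 alone the term for LOC410042 was not called (edgeR adjusted p = 0.136). LOC726522 stood at 4.97, 5.72 and 7.01 normalized RPKM in 72 h females, against 0.671, 1.38 and 1.44 in 48 h females, with no overlap.

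Where an enzyme has several genes, the share of each in their summed normalized RPKM can be read within an embryo and is free of the scaling. The hexokinase LOC408818 made up 76 ± 2.5, 51.5 ± 4.72 and 22.1 ± 7.14% of hexokinase at 24, 48 and 72 h in females, against 82.9 ± 2.29, 84.4 ± 3.14 and 83 ± 3.01% in males (SD, n = 6). LOC551005 accordingly made up 77.9 ± 7.14% in 72 h females, against 17 ± 3.01% in 72 h males. The aldolase LOC725455 made up 0.666 ± 0.609, 12.2 ± 3.02 and 21 ± 6.56% in females, against 0.686 ± 0.846, 0.493 ± 0.56 and 1.84 ± 2.69% in males. The oxoglutarate dehydrogenase LOC413768 made up 2.04 ± 0.499, 20.2 ± 2.17 and 8.98 ± 2.06% in females, against 2.17 ± 0.698, 1.41 ± 0.998 and 4.48 ± 3.21% in males. The malate dehydrogenase LOC408950 made up 92.7 ± 0.841, 69 ± 4.41 and 89.7 ± 2.87% of the genes named mitochondrial in females, against 89.5 ± 0.62, 58.2 ± 6.26 and 69 ± 5.83% in males. LOC411188 made up 82.5 ± 8.77% of lactate dehydrogenase in 48 h females and 86.8 ± 3.94% in 72 h females. In 72 h males it had no read, but their summed lactate dehydrogenase level was only 1.78 ± 0.437 normalized RPKM. With a limit of 3 counts per embryo, a mean of 3.11 CPM, its share in 72 h males could lie well above 0.

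**Figure D4:**
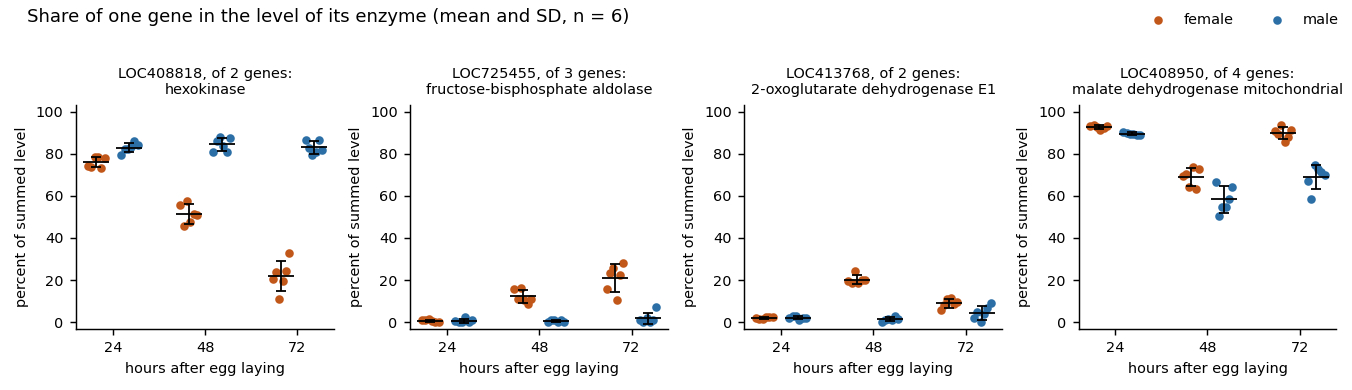
Share in percent of 1 gene in the summed level of its enzyme in each embryo (points) with mean and SD of 6, females left of males, at 24, 48 and 72 h AEL. The share of the hexokinase LOC408818 is 22.1% in 72 h females, against 83% in 72 h males.

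Summed over the 15 glycolytic genes, the level ran from 1127 to 1707 normalized RPKM in 24 h females and from 1393 to 1636 in 24 h males. At 48 h it was 373 ± 37.6 in females and 988 ± 40.5 in males, and at 72 h 326 ± 33.5 in females and 903 ± 179.9 in males (SD, n = 6). The females lay below the males at 48 and 72 h on this scale. Summed RPKM as the authors scaled them were 283 ± 23.9 in 48 h females and 431 ± 80.5 in 48 h males, and 319 ± 47.4 in 72 h females and 152 ± 57.8 in 72 h males, so that the order at 72 h turns with the scale. The sum of the 23 citric acid cycle genes was 1343 ± 55.9, 732 ± 62.1 and 697 ± 63.9 normalized RPKM in females, against 1137 ± 51.6, 712 ± 92.5 and 733 ± 65.4 in males. Most of the glycolytic sum came from LOC552736 and LOC552007.

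**Figure D5:**
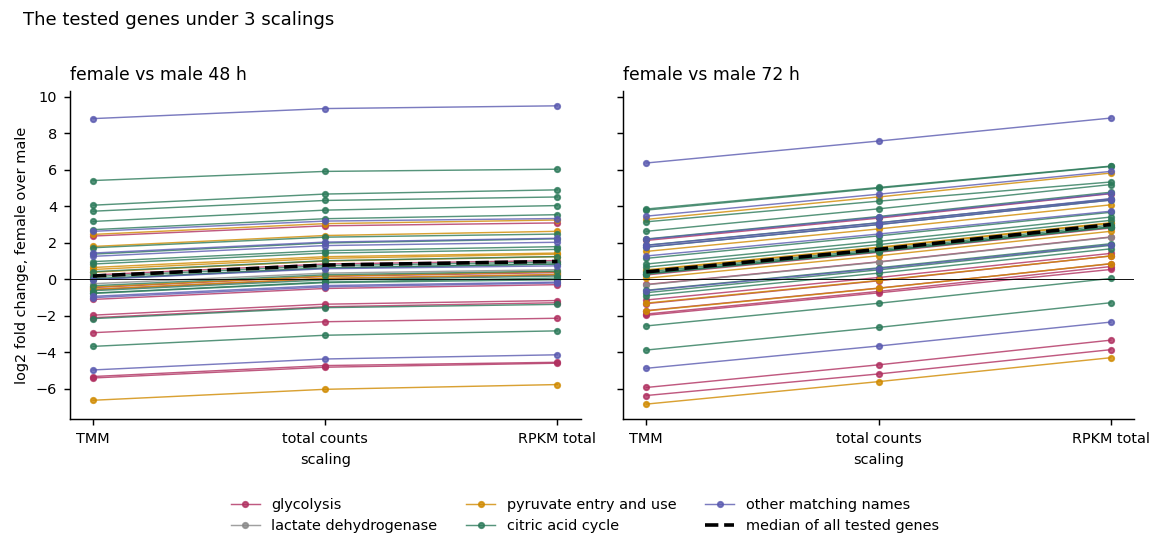
Log2 fold change of females over males at 48 h and 72 h AEL for the tested genes under TMM, total counts and the RPKM total (lines, coloured by set), without LOC411188 and LOC100576801, with the median of all tested genes dashed. At 72 h the dashed median climbs from 0.41 to 3.00, and few genes stay below 0, among them LOC412876 at -4.29.

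Other genes of the same pathways were read from lists that the product rule leaves out, and their counts stand against 33.7% of all tested genes higher and 27.6% lower in females at 48 h. By product name 4 genes of the pentose phosphate pathway were found, which branches from glycolysis and yields NADPH, so that not every enzyme of it was covered. At 72 h 3 of these 4 were called lower in females with TMM, with a median log2 difference of -1.73, against 26.8% of all tested genes. At 48 h all 4 were lower in females than in males, with a median log2 difference of -3.09. The 48 h values were -5.22 (SE 0.22) for glucose-6-phosphate dehydrogenase LOC725325, -3.93 (SE 0.18) for Pgd, -2.25 (SE 0.14) for the transketolase LOC550804 and -1.86 (SE 0.14) for Tal. Of the remaining citric acid cycle genes 4 of 7 tested were higher and 1 lower in females at 48 h, the lower one being SdhA of succinate dehydrogenase at -1.26 (SE 0.12). Of the remaining glycolytic and gluconeogenic genes 2 of 5 were higher and 2 lower at 48 h, among them glucose-6-phosphate isomerase LOC551154 at 2.03 (SE 0.19) and fructose-1,6-bisphosphatase LOC727153 at -1.85 (SE 0.18). Of 29 tested genes of trehalose and glycogen metabolism 9 (31%) were higher and 11 (37.9%) lower at 48 h.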

How the data were processed

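Single embryos had been amplified with a SMART-Seq kit and T7 transcription and sequenced on an Illumina instrument (bcl2fastq 2.16.0.10 per the submitters' processing notes). The authors trimmed reads with cutadapt and the FASTX-Toolkit, aligned them to Amel_4.5 with TopHat2 and kept uniquely aligned reads. They deposited read counts per annotated gene, without normalization, and RPKM, scaled by exon length and a library total. Dividing counts by RPKM gave this total back in each embryo (within 1% for 100% of genes at an RPKM of 5 or more). The counting tool and its use of strand are not given in the sources used here, so that overlapping genes are uncertain. The labels give a laying window of 2 h and the methods 3 h.

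All 36 embryos entered 1 edgeR 4.0.16 model (R 4.3.3) of 6 groups plus queen, with TMM factors, filterByExpr (minimum count 10, minimum total 15), the quasi-likelihood F-test and Benjamini-Hochberg adjustment. The scripts were tested on simulated data. Calls needed an adjusted p under 0.05 together with a log2 fold change beyond 1 in size. Depth was 1195774 to 12808580 counts. Where no read was seen, up to 3 counts remain possible; such limits cover counting error only. Embryos are separate individuals.

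Levels were named for the most abundant gene of each step and for paralogues, and full statistics were given for the 3 highest and 3 lowest fold changes of each comparison called with 1 direction in each queen. Further members are given by role. Members and lists were chosen with earlier results of these data known. Alternatives were DESeq2 1.42.0, upper-quartile factors, total counts, the RPKM total, no filter, an unadjusted p under 0.01, only the groups compared, no queen term, each queen alone, a replicate block and leaving out each embryo. No sequences were printed.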

Additional observations from a re-analysis of the deposited data

Results flagged for a closer look

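Of 97 groups of 6 embryos examined for single genes, 3 held 1 embryo far from the other 5, where chance alone gives about 1 in 20. LOC408818 had 7.35 CPM in 1 female of 48 h, where the nearest of the others had 5.07. LOC725056 had 23.2 CPM in 1 male of 48 h (nearest 14.5), and Pdp had 24.7 CPM in 1 male of 72 h (nearest 14.8). The part of these embryos in other genes was not tested.

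The change from 24 to 48 h differed between females and males, by the interaction test over both queens, for LOC411307 (8.26 on the log2 scale), LOC412569 (6.78, a value that rests on 1 to 4 reads in the low groups), Mdh (4.16), LOC412876 (-6.39), LOC413924 (-5.80) and LOC725967 (-5.23). In queen 1 alone the term for LOC412569 was 3.03 and not called (edgeR adjusted p = 0.875). In queen 2 alone it was 11.16 (edgeR adjusted p = 0.000887). The change from 48 to 72 h differed for LOC102654264 (3.81, with 2 reads in 72 h males), LOC410042 (3.46), LOC726522 (3.12), Mdh (-3.78), LOC413768 (-3.32) and Pdk (-3.10). For LOC410042 the term was 4.02 (edgeR adjusted p = 0.00441) in queen 1 alone. In queen 2 alone it was 2.78 and not called (edgeR adjusted p = 0.136).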

How the results depend on the processing

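For the fold changes named with full statistics, 481 values came from the alternatives other than leaving out an embryo. Of these 461 kept their direction and call, 20 lost the call and 0 reversed. The losses fell on 11 of the 45 named results. The named fold changes had been chosen with 1 direction in each queen, so that the runs of each queen alone could not reverse them. They were also the largest called with TMM, so that the lack of reversals does not extend to the other genes. Other genes did reverse between females and males at 72 h with the RPKM total, among them LOC551005, Pfk and LOC550785. The number called changed by more than 1.5 times for males at 48 vs 24 h (11, against 30 with the RPKM total and 7 with only the groups compared), for males at 72 vs 48 h (9, against 36, 4 and, with the replicate block, 5) and for the interaction at 72 vs 48 h (15, against 37 with the RPKM total and 8 with the replicate block). With the RPKM total the median log2 value of all tested genes was -0.80, -1.52 and 1.82, in this order. The log2 ratio of the summed level, female over male, was -1.47 with TMM and 1.07 with deposited RPKM for glycolysis at 72 h, -0.25 and 2.33 for pyruvate entry and use, and -0.07 and 2.50 for the citric acid cycle. At 48 h it was -1.40 and -0.61 for glycolysis, 0.55 and 1.39 for pyruvate entry and use, and 0.04 and 0.83 for the citric acid cycle, which was 0.24 and 0.32 at 24 h. Here the scale differs by its construction. Leaving out each embryo gave 0 to 0, 26 to 28 and 31 to 31 calls between the sexes at 24, 48 and 72 h, 30 to 34 and 20 to 22 in females, 9 to 12 and 7 to 11 in males, and 23 to 27 and 14 to 18 for the interactions. Without male 72 h replicate 24, LOC725455 lost its male call, and LOC725056 at 72 vs 48 h in males lost its call without male 48 h replicate 6 (-0.84) or male 72 h replicate 4, 17 or 23 (-0.88 to -0.97). Embryo numbers of the labels are shared between groups, but the embryos differ and their correlations ran from -0.20 to 0.13, so that the numbers do not pair them. The replicate block, without 24 h males, gave 27 and 28 calls at 48 and 72 h between the sexes. Depth limits 72 h males most.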
